A study of Mus musculus with 12 samples.

Results

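Most of the genes described here encode the subunits of the respiratory chain and of ATP synthase, complexes I to V of oxidative phosphorylation. They were taken by symbol (Nduf, Sdha to Sdhd, Uqcr, Cox4 to Cox8, Atp5, and the mitochondrial mt-Nd, mt-Co, mt-Cytb and mt-Atp genes), with numbered pseudogenes left out. The rule used no measured value and matched 108 of the 35013 rows of the count table, 95 nuclear and 13 mitochondrial. By complex these were 50 genes of complex I, 4 of complex II, 9 of complex III, 23 of complex IV and 22 of complex V. Some matching rows are not coding genes: Ndufb4c, Ndufa11b, Ndufs6b and Cox6c2 are annotated as processed pseudogenes, and rows ending in -ps carry a pseudogene symbol. Counts were high enough to test 93 of the 108, 80 nuclear and all 13 mitochondrial. Ndufb4c and Ndufa12-ps are among the 80 and are counted under complex I. Neither was called with romidepsin in either line. The 15 others had between 0 and 69 counts in all libraries together, and 4 of these had none. They were Cox4i2, Cox6a2, Cox6b2, Cox6c2, Cox7b2, Cox8b, Cox8c, Ndufa11b, Ndufb11b, Ndufs6b and 5 rows whose symbols end in -ps.

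The RNA came from KP1 cells of mouse origin, labelled LUAD (lung adenocarcinoma), and was selected by its poly-A tail. The cells carried an empty vector (EV) or overexpressed NRF2, the transcription factor that drives antioxidant genes. Each line received DMSO, the solvent, or 5 nM romidepsin for 16 h, a drug that blocks class I histone deacetylases. Each of the 4 combinations of line and treatment had 3 libraries. The promoter driving NRF2 and the number of transductions or clones behind each line are not given in the sources used here, so p-values measure only the spread between these libraries. In bulk RNA, fewer cells of a type and less RNA per cell cannot be told apart. The libraries held 16842824 to 28003010 estimated counts, and Nfe2l2, the gene of NRF2, stood at 93.3 to 103 CPM (counts per library, brought to one shared total) in EV and 281 to 365 CPM in NRF2 libraries. Of 11 lung epithelial markers, 5 (Nkx2-1, Sftpc, Sftpb, Napsa and Lamp3) stayed below 1 CPM in every library, while the keratin genes Krt7, Krt8, Krt18 and Krt19 and Cdh1 lay between 225 and 3731 CPM. All 4 mesenchymal markers stayed above 1 CPM. Vim lay at 2882 to 6145, Cdh2 at 28.8 to 99.8, Zeb1 at 26.6 to 54.4 and Twist1 at 1.125 to 18.6 CPM. With romidepsin the mean of Vim went from 3438 and 3079 to 6107 and 5348.5 CPM in EV and NRF2 cells. That of Cdh1 went from 353 and 417 to 246 and 227 CPM. With DMSO, Twist1 had means of 18.2 in EV and 2.58 CPM in NRF2 cells. Some markers of other cell types moved with romidepsin. In EV and NRF2 cells the mean of Cd68 went from 3.27 and 4.03 to 49.6 and 68.4 CPM, of Csf1r from 0.0197 and 0.0418 to 0.437 and 0.939, of Col1a1 from 0.511 and 0.782 to 6.11 and 7.83 and of the epithelial Epcam from 0.0307 and 0.0657 to 3.59 and 7.23. Ptprc, which defines leukocytes, was at most 0.566 CPM in any library, and Dcn and Lum of fibroblasts at most 0.182. The part of these markers' cell types in the results was not tested.

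Complex I passes electrons from NADH and complex II from succinate to ubiquinone, complex III hands them to cytochrome c, complex IV reduces oxygen, and complex V makes ATP from the proton gradient that complexes I, III and IV build. Complexes I, III, IV and V are mosaics: mitochondrial DNA encodes a few core membrane subunits of each, and nuclear genes encode the rest, along with the whole of complex II. Supply from both genomes has to be matched for assembly, which is why the nuclear and mitochondrial mRNAs are set against each other here.

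The mitochondrial mRNAs cannot all be counted cleanly, because chromosome 1 of the mouse genome carries a stretch of near-identical mitochondrial DNA. On GRCm38 this stretch holds 7 annotated pseudogenes in a row between bases 24611535 and 24616197, and the deposited table lists each as a gene of its own; Gm10222, the copy of mt-Nd4l, has 0 counts there. The next lines show why these counts matter: 60 bases of mt-Co2 (bases 7013 to 7696 of the mitochondrial genome) and of its copy Gm28661 (chromosome 1, 24614885 to 24615565, minus strand), and of mt-Co1 (5328 to 6872) and its copy Gm29216 (24615706 to 24616197, minus strand). Capitals mark the 1 base that differs between mt-Co1 and Gm29216 over 483 aligned bases, and mt-Co2 and Gm28661 do not differ over 681 bases.
mt-Co2: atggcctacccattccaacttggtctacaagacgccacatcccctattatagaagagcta
Gm28661: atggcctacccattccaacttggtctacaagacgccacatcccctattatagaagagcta
mt-Co1: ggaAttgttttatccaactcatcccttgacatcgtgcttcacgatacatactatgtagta
Gm29216: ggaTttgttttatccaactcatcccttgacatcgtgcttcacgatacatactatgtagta

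Regulatory letters of the nuclear genes were read from RefSeq promoters on GRCm38.p6, which run from 250 bases before to 50 after each start. Of the 80 nuclear members tested, 65 had a promoter there. The core letters of the site of nuclear respiratory factor 1 (TGCGCA, a palindrome), a transcription factor named for its binding to respiratory genes, stood in 18 of the 65 (27.7%), against 8.06% of all 27025 promoters. The ETS letters CCGGAAG, which GABPA also reads, stood in 24.6% against 9.12%. The YY1 letters GATGGCG stood in 12.3% against 3.66%. The core of the antioxidant response element that NRF2 reads (TGACNNNGC) stood in 13.8% against 12.5%. All letters were searched on both strands, and a match is a description of the window, not a shown binding site. Ndufb6 (chr4:40279422-40279671, minus strand), which rose with romidepsin, and Ndufa9 (chr6:126849145-126849394, minus strand), which fell, are printed below. They are 2 complex I genes of opposite direction whose 250 upstream bases both hold the TGCGCA core. Capitals mark the matches: CTTCCGG, the ETS letters read on the other strand, and TGCGCA in Ndufb6, and TGCGCA and TGACCCCGC in Ndufa9.
Ndufb6: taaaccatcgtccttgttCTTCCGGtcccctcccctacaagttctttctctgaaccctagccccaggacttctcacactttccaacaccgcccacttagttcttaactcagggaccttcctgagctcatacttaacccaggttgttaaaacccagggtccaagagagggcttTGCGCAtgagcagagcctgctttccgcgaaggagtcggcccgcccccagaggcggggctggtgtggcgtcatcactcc
Ndufa9: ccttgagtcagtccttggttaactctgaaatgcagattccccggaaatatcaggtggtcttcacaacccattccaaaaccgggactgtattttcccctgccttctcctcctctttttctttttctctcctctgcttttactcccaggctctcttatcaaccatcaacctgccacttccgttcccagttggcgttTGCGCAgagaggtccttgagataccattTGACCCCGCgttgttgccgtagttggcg

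The mitochondrial mRNAs were far more abundant than the nuclear ones. Per kilobase of transcript in EV cells with DMSO, the median level of nuclear members was 72.5 CPM in complex I, 70.2 in complex II, 137 in complex III, 176 in complex IV and 145 in complex V. The mitochondrial mRNAs had medians of 2327 CPM per kilobase for the 7 of complex I, 6798 for the 3 of complex IV and 6749 for the 2 of complex V, and mt-Cytb of complex III stood at 5881. On the same per-kilobase scale the highest nuclear members were Ndufa4 (244), Sdhb (79.9), Uqcrq (221), Cox4i1 (452) and Atp5b (587), the last 2 being the ubiquitous subunit 4 of cytochrome c oxidase and the catalytic beta subunit of ATP synthase. In this poly-A-selected RNA the lowest mitochondrial mRNA was mt-Nd6 at 57.0 CPM per kilobase, below the nuclear medians. The 13 mitochondrial mRNAs took 4.84 to 6.35% of all counts in 11 libraries and 7.30% in replicate 3 of NRF2 cells with DMSO. The 95 nuclear members took 0.743% in that library and 0.819 to 1.11% in the others.

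Replicate 3 of NRF2 cells with DMSO therefore stood apart in both genomes, and counts that touch its group, and named member values that lost their call or moved by over 1.5 times, are given with and without it. Against the mean of replicates 1 and 2, 12 of the 13 mitochondrial mRNAs were higher there, with a median ratio of 1.39 and the largest ratio for mt-Nd4l (2.08). Of the 80 nuclear members, 72 were lower, with a median ratio of 0.818, while the median over all genes was 0.998. Summed mitochondrial CPM was 9.82 times the summed nuclear CPM in this library and 5.43 to 6.27 times in the other 11. Short transcripts as a class were also low in it. All nuclear genes with transcripts under 1000 bases had a median ratio of 0.864, against 1 for longer ones, whereas the members stood at 0.797 for 50 short and 0.829 for 24 long transcripts. The part of transcript length or RNA quality in the member values was not tested.

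The split between mitochondrial mRNAs and their chromosome 1 copies varied between libraries. The CPM of mt-Co2, the complex IV subunit that takes electrons from cytochrome c, was 2902, 5723 and 5326 in untreated EV cells, 4334, 4345 and 6936 in untreated NRF2 cells, 4026, 4898 and 6777 in EV with romidepsin, and 5244, 5226 and 5257 in NRF2 with romidepsin. Gm28661 held 5357, 2604, 3319, 3813, 3990, 2015, 4191, 3639, 1526, 2270, 2112 and 2364 CPM in the same order, low where mt-Co2 was high. Alone, mt-Co2 spanned 2.39-fold over the libraries, and together with its copies 1.22-fold. The same pooling narrowed the span of mt-Atp6, a proton channel subunit of complex V, from 1.91- to 1.23-fold, and that of mt-Nd3 from 1.92- to 1.38-fold. It narrowed mt-Co1 from 1.58- to 1.46-fold and mt-Co3 from 1.28- to 1.165-fold, but widened mt-Nd4 from 1.27- to 1.605-fold. The 6 copies with counts held 38.1% of the joint counts for mt-Co2, 24.6% for mt-Atp6, 24.4% for mt-Nd3, 8.01% for mt-Co1, 2.50% for mt-Co3 and 1.85% for mt-Nd4. In replicate 3 of NRF2 with DMSO the split differed again. Gm29216, the copy of mt-Co1, stood at 1.94 CPM there and at 968 to 1424 CPM in the others. Gm28439, identical to mt-Nd4 over 876 bases, stood at 1549 CPM there and had 0 counts in the other 11. Levels of these 6 mRNAs are therefore uncertain, and a fit on the pooled counts, chosen after seeing the data, is given beside them.

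**Figure D1:**
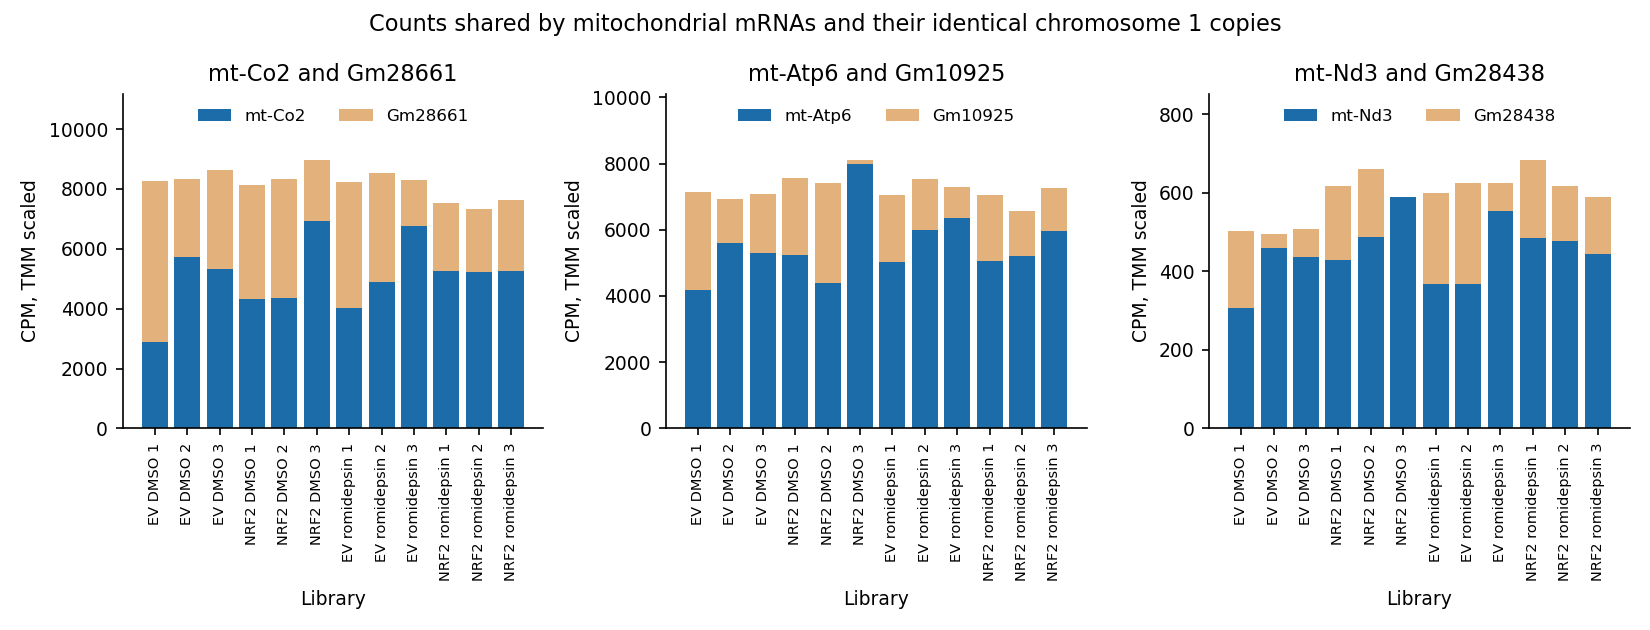
Stacked bars of TMM-scaled CPM per library (x axis, 12 libraries) for mt-Co2, mt-Atp6 and mt-Nd3 (blue) and the chromosome 1 copy of each (tan). The height of the blue part varies by up to 2.39-fold for mt-Co2, while the whole bar varies by 1.22-fold.

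Romidepsin in EV cells raised 34 and lowered 15 of the 80 nuclear members, which is 42.5 and 18.8% of them. Over all 13502 genes tested, 39.1% were higher and 37.4% lower, so the share of members that rose was near the background and the share that fell was below it. The median log2 fold change of the nuclear members was 0.16, against 0.01 over all genes. With upper-quartile factors the counts were 46 higher and 8 lower, and with library size alone 47 and 6. These scalings moved the median of all genes by 0.11 and 0.12. The share of all genes called under them was not counted, so the shares above are not their background. In NRF2 cells romidepsin raised 43 and lowered 14 nuclear members (53.8 and 17.5%), against 40.5 and 39.3% of all genes, with a median of 0.22 against 0.01. Replicate 3 of NRF2 with DMSO is in neither EV group, but the fit shares its spread, gene filter and scaling across libraries. Without it the EV counts were 45 higher and 21 lower, against 40.8 and 38.6% of all genes. In NRF2 cells with all libraries the upper-quartile fit gave 49 and 7 and the fit on library size alone 51 and 6. The shifts were 0.11 and 0.14, and the share of all genes was again not counted. For NRF2 cells the fit without that replicate gave 39 higher and 23 lower, against 40.1 and 40.6% of all genes, with a median of 0.14. Members then called lower in both lines included Ndufs7 (-0.30 and -0.30), Ndufb5 (-0.33 and -0.34) and Atp5g1 (-0.25 and -0.27). The 2 romidepsin comparisons share no library. With all libraries, 33 nuclear members rose and 12 fell in both of them, 1 (Ndufa6) was called in opposite directions, and 20 were called in neither. The share of all genes called in both lines was not counted, nor were these numbers remade without that replicate. They are a description only.

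**Figure D2:**
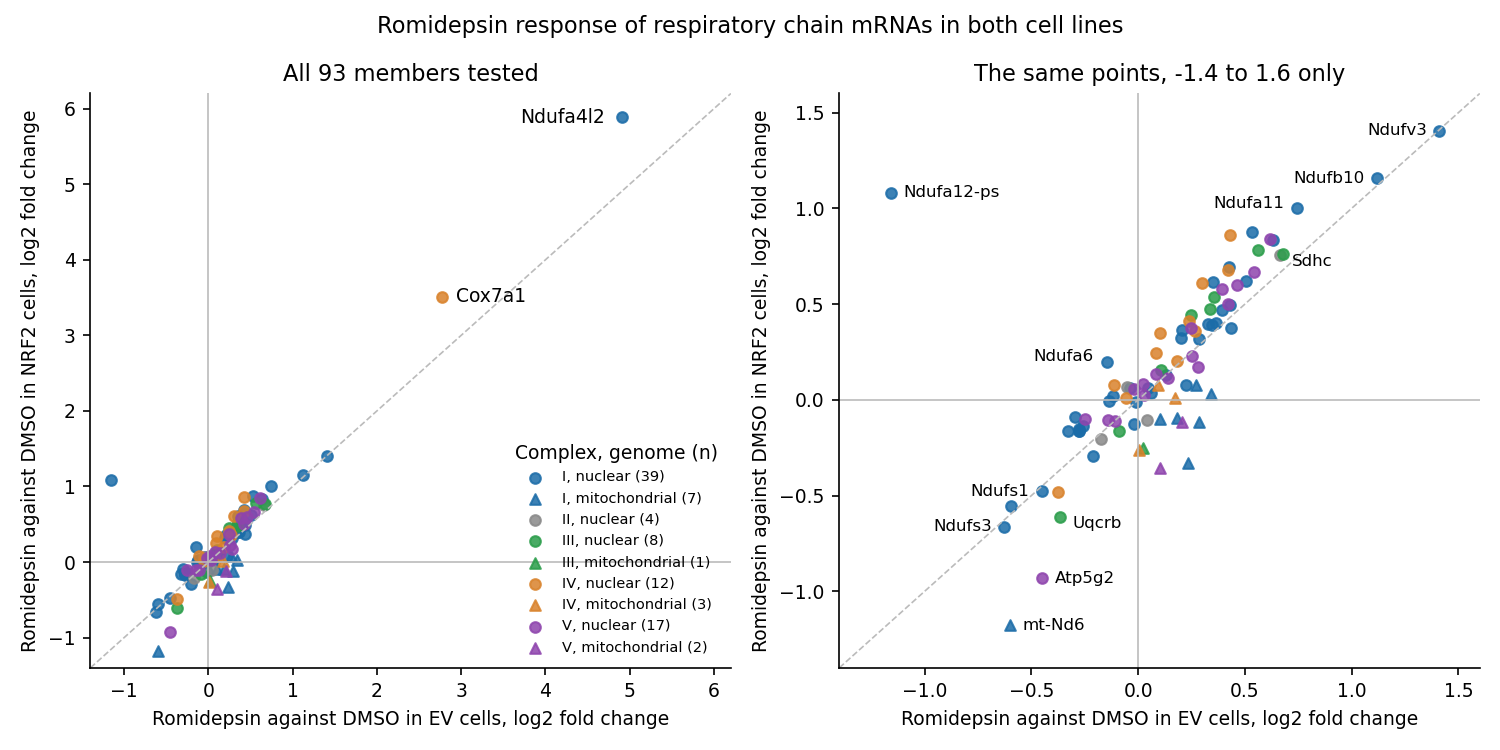
Log2 fold change with romidepsin against DMSO in EV cells (x axis) and NRF2 cells (y axis) for the 93 members tested, coloured by complex, with circles for nuclear and triangles for mitochondrial genes; the right panel enlarges the range from -1.4 to 1.6. Most nuclear members lie along the dashed line of equal change, Ndufa4l2 and Cox7a1 lie far above the rest, and the triangles lie below the line; Ndufa12-ps, with 85 counts in all, did not pass the test in either line.

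In complex I, 16 of 39 nuclear members rose and 10 fell in EV cells (41.0 and 25.6%), against 39.1 and 37.4% of all genes. In NRF2 cells 19 rose and 8 fell (48.7 and 20.5%), against 40.5 and 39.3%. The share that rose in EV cells was near that of all genes. Without replicate 3 of NRF2 with DMSO the counts were 20 and 13 in EV (51.3 and 33.3%) and 17 and 13 in NRF2 cells (43.6 and 33.3%). The shares of all genes were then 40.8 and 38.6% in EV and 40.1 and 40.6% in NRF2 cells. The largest rise at a substantial level was that of Ndufv3, a small accessory subunit of the NADH-oxidising arm. Its CPM was 39.0, 37.1 and 38.3 in EV with DMSO and 98.9, 102 and 104 with romidepsin, and 42.4, 44.8 and 41.3 in NRF2 with DMSO and 117, 112 and 112 with romidepsin. All libraries with romidepsin lay above all with DMSO, with log2 fold changes of 1.41 ± 0.05 (SE) in EV and 1.41 ± 0.05 in NRF2 cells (edgeR adjusted p = 3.3e-14 and 1.5e-14). Ndufb10, an accessory subunit of the membrane arm, held 92.5, 102 and 101 CPM in EV with DMSO and 214, 216 and 213 with romidepsin. In NRF2 cells Ndufb10 held 94.5, 99.9 and 96.7 CPM and then 221, 218 and 211. The rise was 1.12 ± 0.05 and 1.16 ± 0.05 on the log2 scale (edgeR adjusted p = 4.3e-13 and 1.7e-13), and no library with DMSO overlapped one with romidepsin. Ndufa11, another membrane-arm accessory subunit, rose by 0.75 and 1.004, Ndufb9 by 0.63 and 0.83, Ndufb6 by 0.53 and 0.88, and Ndufv1, the subunit that binds FMN and takes electrons from NADH, by 0.35 and 0.62. Ndufa5 was called in EV but not in NRF2 cells (0.22, edgeR adjusted p = 0.0024, and 0.08, edgeR adjusted p = 0.25), and the difference between the lines did not pass the test (edgeR adjusted p = 0.26).

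The complex I members that fell included core subunits of the iron-sulfur arm. Ndufs3 held 23.9, 23.6 and 24.4 CPM in EV with DMSO and 15.2, 15.3 and 16.1 with romidepsin, and 26.7, 28.9 and 22.5 in NRF2 with DMSO and 17.4, 16.1 and 16.1 with romidepsin. The groups did not overlap, and the log2 fold changes were -0.63 ± 0.08 and -0.66 ± 0.08 (edgeR adjusted p = 2.2e-06 and 7.8e-07). Ndufs1, the largest subunit and the carrier of several iron-sulfur clusters, changed by -0.45 and -0.48. The accessory subunits Ndufb2 (-0.60 and -0.55), Ndufa9 (-0.28 and -0.16), Ndufb8 (-0.28 and -0.15) and Ndufs6 (-0.21 and -0.29) also fell in both lines, Ndufb8 in NRF2 cells by 0.28 without replicate 3 of NRF2 with DMSO. Ndufb5 and Ndufb11 fell by call in EV cells (-0.33 and -0.26), and Ndufs8 in NRF2 cells (-0.13). Of these, Ndufs3, Ndufs1 and Ndufb2 kept their calls under every scaling tried, while that of Ndufb8 was lost in EV cells with library size alone and in NRF2 cells with RLE, upper-quartile and library-size scaling. Ndufs8 in NRF2 cells was at 0.014 with library size alone, on the other side of 0. Among the 12 members that fell in both lines, 8 had a promoter, and 5 of the 8 (62.5%) held the TGCGCA core, as did 7 of 29 (24.1%) among those that rose in both. The 5 were Atp5g2, Ndufa9, Ndufb8, Ndufs6 and Sdhd, of which Atp5g2 in EV cells, Ndufb8 and Sdhd lost calls under other scalings. Ndufb5, Ndufs7 and Atp5g1, called lower in both lines without replicate 3 of NRF2 with DMSO, held no TGCGCA. These shares were not tested, nor remade without that replicate.

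Ndufa4l2 and Ndufa4 match the complex I symbols, although NDUFA4 is known as a subunit of complex IV and NDUFA4L2 as its hypoxia-induced relative. Ndufa4l2 was almost absent with DMSO, with 1 count in EV and 2 counts in NRF2 cells over 3 libraries each. With romidepsin there were 42 counts in EV (0.589, 0.541 and 0.850 CPM) and 149 in NRF2 cells (1.82, 2.36 and 2.45 CPM). Scaled to the library totals, the ratio was 40.6 in EV (95% exact counting interval 6.89 to 1639) and 69.8 in NRF2 cells (18.99 to 582), intervals that cover counting error only. Its level with romidepsin was higher in NRF2 than in EV cells by 1.74 ± 0.31 on the log2 scale (edgeR adjusted p = 2.0e-04), and each of the 3 NRF2 libraries lay above each EV library. Ndufa4 rose as well, by 0.39 and 0.47 (edgeR adjusted p = 0.0028 and 6.8e-04). Since Ndufa4l2 passed the filter only through the romidepsin libraries, its rise is partly fixed by the filter.

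In complex II 1 of 4 members rose and 1 fell in each line with all libraries (25.0% each). The shares of all genes were 39.1 and 37.4% in EV and 40.5 and 39.3% in NRF2 cells. The 2 called were the membrane anchors, in opposite directions. Sdhc held 66.5, 68.2 and 71.4 CPM in EV with DMSO and 107, 110 and 110 with romidepsin. In NRF2 cells Sdhc held 73.2, 71.8 and 56.3 CPM, then 113, 113 and 115. This is a rise of 0.66 ± 0.07 and 0.75 ± 0.07 (edgeR adjusted p = 2.3e-07 and 3.6e-08). Sdhd held 90.2, 98.1 and 99.0 CPM in EV with DMSO and 83.7, 85.6 and 85.01 with romidepsin, with every treated library below every untreated one. Its fold change was -0.18 ± 0.06 in EV and -0.21 ± 0.06 in NRF2 cells (edgeR adjusted p = 0.0079 and 0.0026), calls that were lost with upper-quartile factors and with library size alone. The catalytic flavoprotein Sdha (0.04 and -0.10) and the iron-sulfur subunit Sdhb (-0.05 and 0.07) did not pass the test. Without replicate 3 of NRF2 with DMSO, Sdhb was called lower in NRF2 cells (-0.13, edgeR adjusted p = 0.020).

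In complex III, 5 of 8 nuclear members rose in each line (62.5%), against 39.1% of all genes in EV and 40.5% in NRF2 cells. In the same fit 1 fell in EV and 2 in NRF2 cells (12.5 and 25.0%), against 37.4 and 39.3%. Without replicate 3 of NRF2 with DMSO 5 rose and 2 fell in each line. The shares of all genes were then 40.8 and 38.6% in EV and 40.1 and 40.6% in NRF2 cells. The acidic hinge subunit Uqcrh rose by 0.68 and 0.76, Uqcr11 by 0.56 and 0.78, the Rieske iron-sulfur protein Uqcrfs1 by 0.35 and 0.54, the core protein Uqcrc1 by 0.25 and 0.44, and Uqcr10 by 0.33 and 0.47 (0.30 in NRF2 cells without replicate 3 of NRF2 with DMSO). Uqcrb, the ubiquinone-binding subunit, went the other way. It held 66.4, 67.4 and 71.5 CPM in EV with DMSO and 51.2, 57.0 and 51.1 with romidepsin, and 68.1, 73.4 and 69.2 in NRF2 with DMSO and 46.9, 45.7 and 45.2 with romidepsin. The change was -0.37 ± 0.05 in EV and -0.61 ± 0.05 in NRF2 cells (edgeR adjusted p = 6.4e-06 and 7.7e-09). Uqcrc2 fell in NRF2 cells (-0.16, edgeR adjusted p = 0.0041) and stood at -0.09 in EV cells (edgeR adjusted p = 0.080). Without replicate 3 of NRF2 with DMSO, Uqcrc2 was called lower in EV cells (-0.09, edgeR adjusted p = 0.030).

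In complex IV, 5 of 12 nuclear members rose in EV and 9 of 12 in NRF2 cells (41.7 and 75.0%), against 39.1 and 40.5% of all genes. In each line 1 fell (8.33%), against 37.4% of all genes in EV and 39.3% in NRF2 cells. Without replicate 3 of NRF2 with DMSO 9 rose and 2 fell in EV, and 8 rose and 1 fell in NRF2 cells. The shares of all genes were then 40.8 and 38.6% in EV and 40.1 and 40.6% in NRF2 cells. In the fit of all libraries Cox7c was the single one to fall, by 0.38 and 0.48 on the log2 scale (edgeR adjusted p = 6.7e-05 and 4.0e-06). The largest rise was that of Cox7a1, the isoform of subunit 7a typical of heart and skeletal muscle. Its CPM was 0.694, 0.474 and 0.463 in EV with DMSO and 3.44, 3.97 and 3.68 with romidepsin, and 0.541, 0.381 and 0.788 in NRF2 with DMSO and 6.78, 6.54 and 5.36 with romidepsin. No untreated library reached a treated one, with rises of 2.77 ± 0.23 and 3.51 ± 0.21 (edgeR adjusted p = 4.1e-09 and 4.2e-11). Even so it stayed well below its ubiquitous relative Cox7a2, which stood at 72.8 to 81.0 CPM with romidepsin and rose by 0.27 and 0.36. Cox7a2l, which takes part in joining complexes III and IV into supercomplexes, rose by 0.30 and 0.61. Cox6a1, the common form of subunit 6a, rose by 0.43 and 0.86, and Cox5a by 0.42 and 0.68. The tissue-restricted isoforms Cox4i2, Cox7b2, Cox8b and Cox8c had 0 to 2 counts in all libraries together, Cox6b2, known from testis, had 0 with DMSO and 4 and 14 counts with romidepsin in EV and NRF2 cells, and the muscle form Cox6a2 had 69 counts in all.

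In complex V, 7 of 17 nuclear members rose in EV and 9 in NRF2 cells (41.2 and 52.9%), against 39.1 and 40.5% of all genes. In the fit of all libraries the same 2, Atp5a1 and Atp5g2, fell in both (11.8%). Over all genes 37.4% fell in EV and 39.3% in NRF2 cells. Without replicate 3 of NRF2 with DMSO 10 rose and 3 fell in EV, and 8 rose and 5 fell in NRF2 cells. The shares of all genes were then 40.8 and 38.6% in EV and 40.1 and 40.6% in NRF2 cells. The delta subunit Atp5d rose by 0.62 and 0.84, the membrane subunit Atp5l by 0.54 and 0.67 and the peripheral stalk subunit Atp5h by 0.39 and 0.58. Atp5l shares a 309-base identical stretch with the pseudogene Gm10221, so its level is uncertain, as is that of the complex I gene Ndufb4, identical to Ndufb4c over 390 bases. Ndufb4c held 7598 counts in all, against 1747 for Ndufb4. Ndufb4 was called higher with romidepsin in NRF2 cells, but not after pooling with Ndufb4c (0.07, edgeR adjusted p = 0.48). The catalytic beta subunit Atp5b, the most abundant nuclear member, did not pass the test in either line (0.02 and 0.08), and its levels were 1065 to 1162 CPM in EV and 1058 to 1175 CPM in NRF2 libraries. The alpha subunit Atp5a1 fell by 0.14 and 0.11 (edgeR adjusted p = 0.0035 and 0.021), but both calls were lost with upper-quartile factors and library size alone, where the NRF2 value was 0.0033 and 0.034. Of the 3 genes for the c-ring subunit, only Atp5g2 was called in the fit of all libraries. Its CPM was 9.35, 17.4 and 14.6 in EV with DMSO and 9.68, 9.69 and 10.9 with romidepsin, which overlap, and 22.02, 21.8 and 24.0 in NRF2 with DMSO and 12.998, 11.9 and 10.4 with romidepsin, which do not. The changes were -0.45 ± 0.17 and -0.93 ± 0.16 (edgeR adjusted p = 0.027 and 1.0e-04), and the first was lost with upper-quartile factors, with library size alone and when any of 5 single libraries was left out (replicates 2 and 3 of EV with DMSO, 1 and 2 of EV with romidepsin, 3 of NRF2 with DMSO). Atp5g1 (-0.25 and -0.10) and Atp5g3 (0.03 and 0.03) did not pass the test with all libraries. Without replicate 3 of NRF2 with DMSO, Atp5g1 was called lower in EV cells (-0.25, edgeR adjusted p = 1.5e-05) and, as given above, in NRF2 cells.

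**Figure D3:**
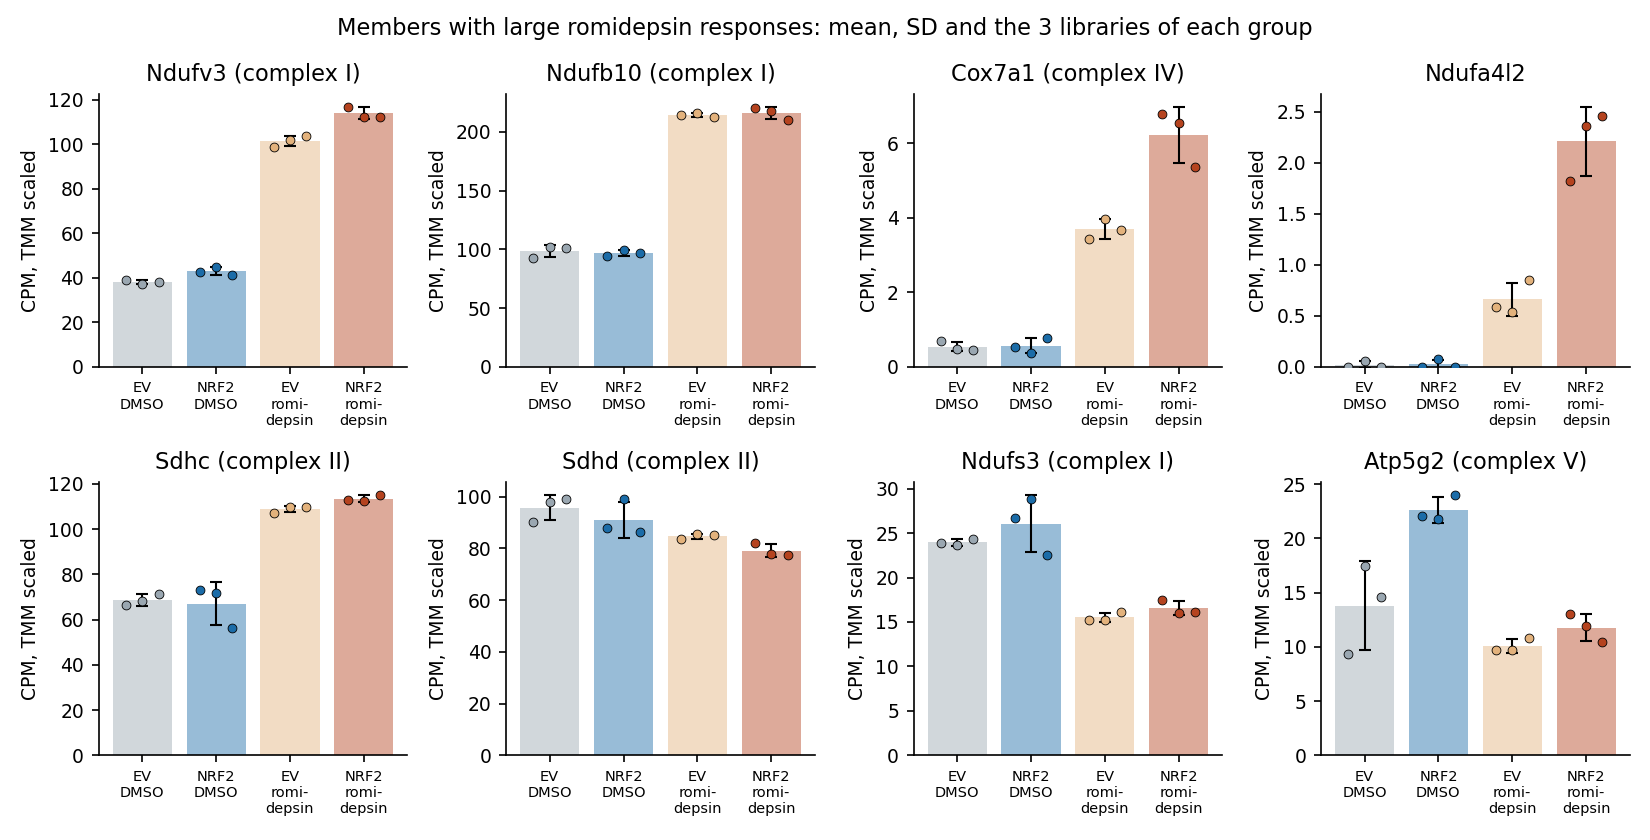
TMM-scaled CPM of 8 members in the 4 groups; bars are means, error bars SD over 3 libraries and points single libraries. Ndufv3, Ndufb10, Cox7a1, Ndufa4l2 and Sdhc are higher and Sdhd and Ndufs3 lower in both romidepsin groups, and Atp5g2 is highest in NRF2 cells with DMSO (22.02, 21.8 and 24.0 CPM).

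The mitochondrial mRNAs moved less with romidepsin than many nuclear ones. In EV cells 12 of the 13 log2 fold changes lay above 0. Their median was 0.17, against 0.16 for nuclear members and 0.01 over all genes. In NRF2 cells 4 lay above 0, with a median of -0.12 (9 and 0.02 without replicate 3 of NRF2 with DMSO). In EV cells 3 of 13 rose and none fell with edgeR (1 lower at an unadjusted p under 0.05 and 1 with DESeq2), against 39.1 and 37.4% of all genes. These were mt-Nd2 (0.34, edgeR adjusted p = 0.0060), mt-Nd4 (0.27, edgeR adjusted p = 4.7e-04) and mt-Nd1 (0.18, edgeR adjusted p = 0.041), all core membrane subunits of complex I. The call of mt-Nd1 was lost on leaving out any of 7 libraries. Levels of mt-Nd2 were 3338, 3285 and 3462 CPM with DMSO and 4145, 4390 and 4223 CPM with romidepsin, without overlap. The complex III and IV mRNAs mt-Cytb and mt-Co1 were at 0.02 and 0.00. Replicate 3 of NRF2 with DMSO is in neither group compared here. Leaving it out of the fit gave 5 higher (mt-Nd4l and mt-Nd5 in addition) and 1 lower (mt-Nd6).

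In NRF2 cells the answer depended on that replicate. With it, none of the 13 rose with edgeR (0 also at an unadjusted p under 0.05 and with DESeq2) and 4 fell: mt-Nd6 (-1.18), mt-Atp8 (-0.35), mt-Co1 (-0.26) and mt-Cytb (-0.25), although with upper-quartile factors or library size alone 2 rose and 1 fell. Without it, mt-Nd2 (0.18), mt-Nd5 (0.17), mt-Nd4 (0.14) and mt-Nd4l (0.09) rose, and the 4 that fell were mt-Nd6 (-0.80), mt-Atp8 (-0.22), mt-Co1 (-0.10) and mt-Cytb (-0.10). The background of all genes was 40.5 and 39.3% with it and 40.1 and 40.6% without. After pooling with the chromosome 1 copies and with all libraries, 6 fell, with mt-Co2 (-0.18, edgeR adjusted p = 0.0021) and mt-Atp6 (-0.14, edgeR adjusted p = 0.015) joining the list, and in EV cells pooled mt-Nd3 rose (0.30, edgeR adjusted p = 9.8e-05) while mt-Nd4 was at 0.27 (edgeR adjusted p = 0.066).

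The mRNA with the largest change was mt-Nd6, the one mitochondrial mRNA encoded on the minus strand (bases 13552 to 14070), whose end overlaps that of mt-Nd5 (11742 to 13565). Its CPM was 32.5, 29.8 and 26.5 in EV with DMSO, 24.7, 22.3 and 46.7 in NRF2 with DMSO, 18.96, 21.6 and 17.8 in EV with romidepsin and 14.7, 13.5 and 12.6 in NRF2 with romidepsin. Every library with romidepsin lay below every library with DMSO. In EV cells the change of -0.60 ± 0.26 did not pass the test (edgeR adjusted p = 0.059) unless replicate 3 of NRF2 with DMSO was left out (edgeR adjusted p = 2.6e-07). In NRF2 cells it passed with that replicate (edgeR adjusted p = 0.0026) and without it (edgeR adjusted p = 2.2e-08). Whether the counting used strand is not given in the sources used here, so reads of mt-Nd6 and of transcripts from the other strand cannot be told apart. The part of poly-A selection in the level and changes of mt-Nd6 was not tested.

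**Figure D4:**
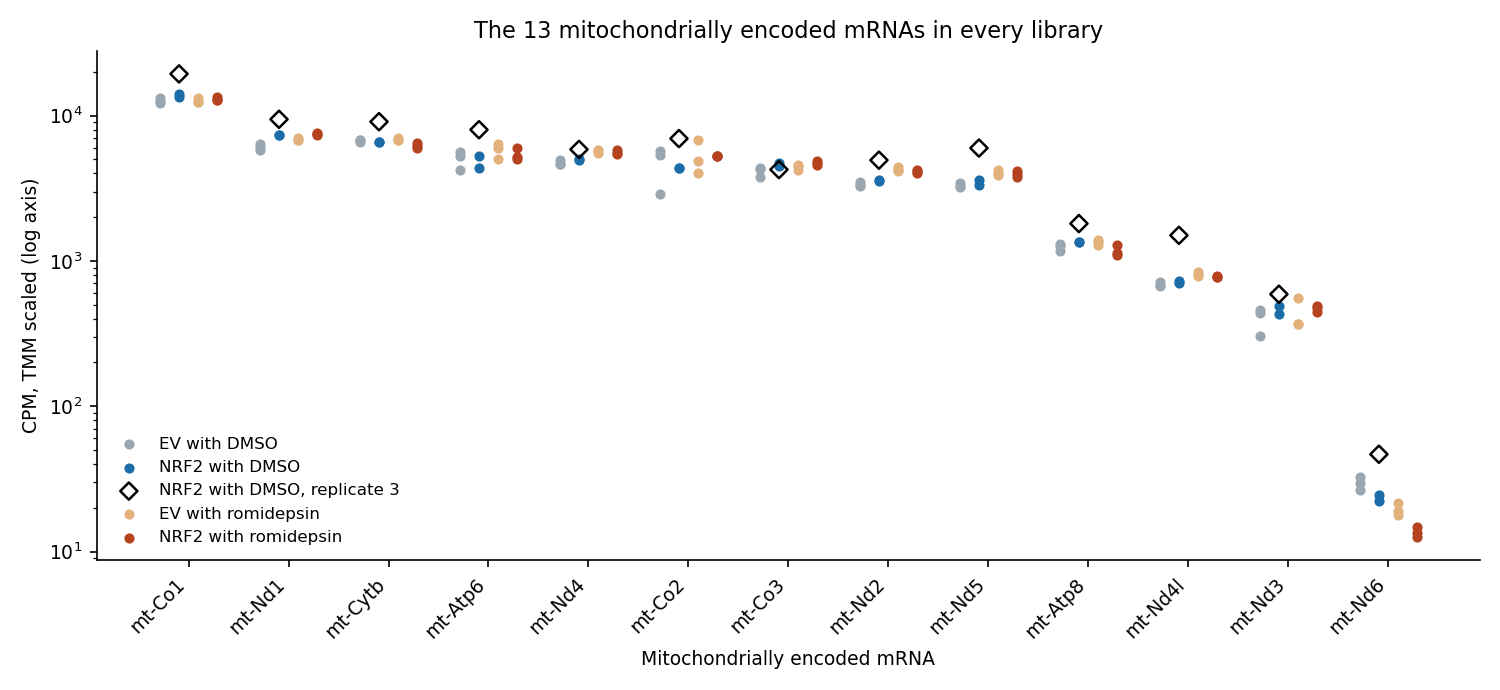
TMM-scaled CPM (log axis) of the 13 mitochondrial mRNAs (x axis) in every library, as points coloured by group, with open diamonds for replicate 3 of NRF2 cells with DMSO. The diamond lies above the other 2 replicates of its group for 12 of the 13 mRNAs, and for mt-Nd6 the romidepsin points (12.6 to 21.6) lie below all DMSO points (22.3 to 46.7).

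The levels were also summed over members. Nuclear members held 8747 ± 337 CPM in EV with DMSO, 8796 ± 789 in NRF2 with DMSO, 9711 ± 115 in EV with romidepsin and 10452 ± 207 in NRF2 with romidepsin (mean ± SD, n = 3 each), and the NRF2 libraries with DMSO stood at 9053, 9424 and, in replicate 3, 7910 CPM. Each romidepsin library lay above every DMSO library. By complex the sums in EV with DMSO and NRF2 with romidepsin, in that order, were 2539 and 3075 CPM for complex I, 437 and 464 for II, 688 and 846 for III, 1662 and 2131 for IV and 3422 and 3936 for V. Shares of counts carry no TMM factors, so they are not on the scale of these sums. Mitochondrial mRNAs with their copies took 5.74 to 5.91% of counts in EV with DMSO, 6.66 to 6.97% in EV with romidepsin and 6.43 to 6.78% in NRF2 with romidepsin. In NRF2 with DMSO they took 6.14, 6.00 and, in replicate 3, 7.64%. Nuclear members took means of 0.846% in EV with DMSO, 1.02% in EV with romidepsin and 1.09% in NRF2 with romidepsin. Their shares in NRF2 with DMSO were 0.861, 0.884 and, in replicate 3, 0.743%. Without the copies, the ratio of mitochondrial to nuclear summed CPM was 6.06 ± 0.14 in EV with DMSO, 6.02 ± 0.23 in EV with romidepsin and 5.57 ± 0.24 in NRF2 with romidepsin (n = 3), and 6.27 and 5.85 in replicates 1 and 2 of NRF2 with DMSO. These sums are descriptions and were not tested.

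NRF2 overexpression with DMSO changed few respiratory chain genes in the fit of all libraries. Of the 80 nuclear members 5 were higher and 1 was lower, against 19.3 and 16.9% of all genes, and 30 fold changes lay above 0 (60 without replicate 3 of NRF2 with DMSO). Atp5g2 was higher by 0.71 ± 0.16 (edgeR adjusted p = 0.0031), and all 3 of its NRF2 libraries lay above the EV ones. Atp5a1 held 407, 422 and 421 CPM in EV and 518, 535 and 521 in NRF2 cells, without overlap (0.33 ± 0.04, edgeR adjusted p = 4.1e-06). Ndufs8, a core subunit with iron-sulfur clusters, was higher by 0.30 (edgeR adjusted p = 2.0e-04), Atp5pb by 0.18 (edgeR adjusted p = 0.0076) and Ndufv3 by 0.17 (edgeR adjusted p = 0.012). Ndufs5 was lower (-0.18, edgeR adjusted p = 0.028), a call lost without replicate 1 of EV with DMSO or replicate 1 or 3 of NRF2 with DMSO. No nuclear member of complexes II, III or IV was called by edgeR, and Uqcrc2 was the 1 with an unadjusted p under 0.05 (0.025).

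Without replicate 3 of NRF2 with DMSO the count of higher nuclear members rose from 5 to 25 and none was lower, against 22.5 and 19.8% of all genes. By complex 13 of 39 were then higher in complex I, 0 of 4 in II, 0 of 8 in III, 5 of 12 in IV and 7 of 17 in V. The largest were Atp5g2 (0.67), Ndufa2 (0.44), Ndufa11 (0.35), Atp5a1 (0.34), Ndufs8 (0.34), Atp5e (0.34), Cox8a (0.28) and Ndufv1 (0.27). Ndufa2 shows the difference that this library makes. It held 50.6, 54.8 and 56.0 CPM in EV cells and 71.9, 73.4 and 50.8 CPM in NRF2 cells, so that the third value fell among the EV values (0.29, edgeR adjusted p = 0.070 with it, and 0.44, edgeR adjusted p = 7.7e-08 without). Among mitochondrial mRNAs mt-Nd1 (0.40), mt-Co1 (0.30) and mt-Nd4 (0.17) were higher and none lower in the edgeR fit of all libraries (0 lower also at an unadjusted p under 0.05 and with DESeq2). The calls of mt-Co1 and mt-Nd4 were lost with library size alone and without replicate 1 or 2 of EV with DMSO. With the chromosome 1 copies pooled, mt-Nd4 was not called (0.30, edgeR adjusted p = 0.081) and mt-Nd3 was higher (0.31, edgeR adjusted p = 2.4e-04). For mt-Nd4 the pooled counts differ only in replicate 3 of NRF2 with DMSO. Without the replicate mt-Nd1 (0.28), mt-Co3 (0.16) and mt-Co1 (0.12) were higher and mt-Nd6 lower (-0.32, edgeR adjusted p = 0.0040).

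**Figure D5:**
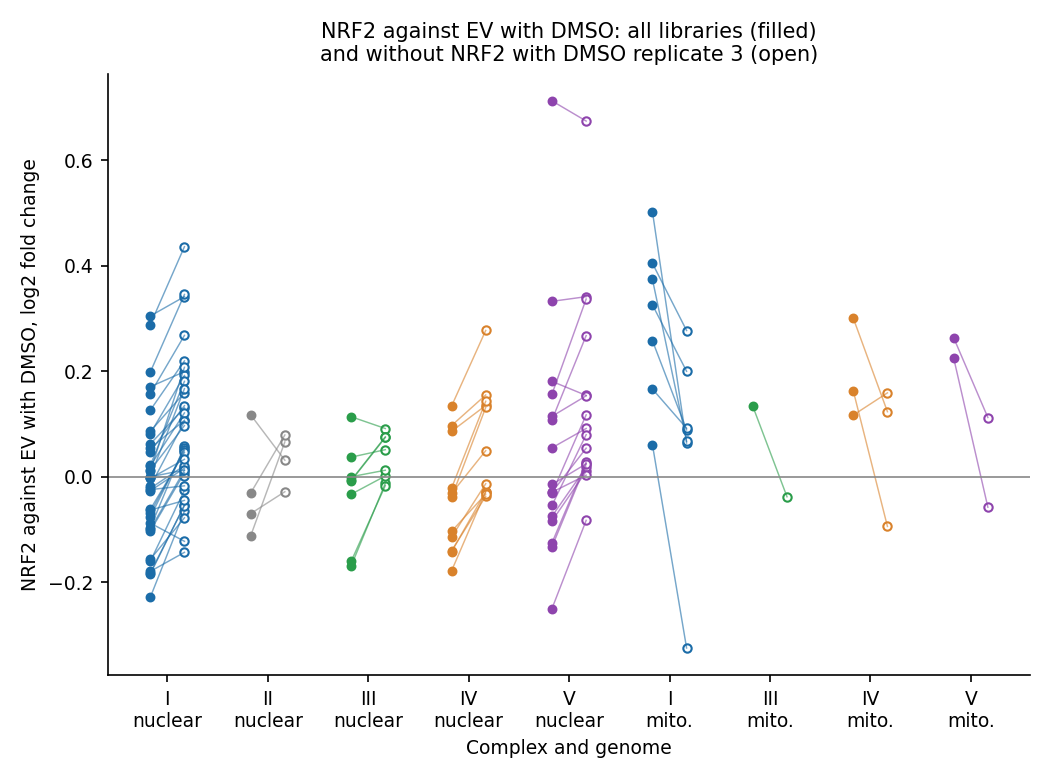
Log2 fold change of NRF2 against EV cells, both with DMSO, for 90 members by complex and genome (x axis), with all 12 libraries (filled) and without replicate 3 of NRF2 with DMSO (open), lines joining the same gene; Cox7a1, Ndufa4l2 and Ndufa12-ps, with few counts, are not drawn. Most nuclear points move up and most mitochondrial points move down when the library is left out; called nuclear members go from 5 higher and 1 lower to 25 higher and 0 lower.

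With romidepsin on both sides, 18 nuclear members were higher and 4 lower in NRF2 than in EV cells, against 23.0 and 22.4% of all genes. This comparison does not contain replicate 3 of NRF2 with DMSO, but the shared estimate of the spread does, and without it the counts were 28 and 10, against 25.3 and 28.2% of all genes. Beside Ndufa4l2 the largest differences were in Cox7a1 (0.76 ± 0.15, edgeR adjusted p = 6.4e-04), Ndufa11 (0.46, edgeR adjusted p = 0.011), Ndufa2 (0.43), Ndufa6 (0.43), Ndufv1 (0.42), Cox7a2l (0.39), Cox8a (0.38) and Atp5a1 (0.37). For Ndufv1 the CPM was 214, 214 and 223 in EV and 303, 294 and 277 in NRF2 cells, and for Atp5a1 it was 382, 372 and 378 against 497, 490 and 475, both without overlap. Ndufs6 (-0.24), Uqcrb (-0.21), Cox7c (-0.21) and Ndufa5 (-0.15) were lower. None of the 13 mitochondrial mRNAs was called with edgeR on all libraries, and 0 had an unadjusted p under 0.05 or a DESeq2 call, whereas pooled with its copies mt-Co2 was lower (-0.16, edgeR adjusted p = 0.011). Without the replicate, 1 was higher (mt-Nd1) and 4 lower (mt-Nd6, mt-Atp8, mt-Cytb and mt-Nd4l).

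The romidepsin response differed between the lines for 4 nuclear members, against 5.53% of all genes in the higher and 10.2% in the lower direction. The response in NRF2 minus that in EV cells was 0.34 ± 0.09 for Ndufa6 (edgeR adjusted p = 0.014), which fell in EV (-0.15) and rose in NRF2 cells (0.20), and 0.31 ± 0.07 for Cox7a2l (edgeR adjusted p = 0.0044). It was 0.27 for Ndufs5 (edgeR adjusted p = 0.035) and -0.25 for Uqcrb (edgeR adjusted p = 0.034). For Ndufa6 the CPM went from 48.1, 50.4 and 48.4 to 43.4, 42.4 and 46.7 in EV cells, and from 52.4, 56.3 and 46.5 to 58.7, 58.3 and 61.4 in NRF2 cells. The fall of Ndufa6 in EV cells was lost under 3 scalings and its rise in NRF2 cells without replicate 3 of NRF2 with DMSO (0.11, edgeR adjusted p = 0.060). In the difference, leaving that replicate out gave Cox7a2l, Ndufa6 and Cox6a1 higher and Uqcrb and Atp5e lower, against 6.70 and 15.5% of all genes, and Ndufs5 was not called. None of the 13 mitochondrial mRNAs was called with edgeR on all libraries (4 lower at an unadjusted p under 0.05 and 1 with DESeq2), and all 13 differences were below 0, with a median of -0.28 against -0.02 over all genes. Without the replicate 4 were called lower: mt-Atp8 (-0.32), mt-Nd1 (-0.17), mt-Nd2 (-0.15) and mt-Nd4l (-0.14), mt-Co2 was the 1 above 0 (0.08), and the median was -0.12 against -0.04 over all genes. With copies pooled and all libraries, mt-Nd3 was called lower (-0.28, edgeR adjusted p = 0.021).

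Genes around the chain were followed in 4 lists. Of 12 tested regulators of respiratory chain genes, romidepsin lowered 7 and raised 2 in EV cells and lowered 8 and raised 3 in NRF2 cells, with list medians of -0.40 and -0.53. Over all genes romidepsin lowered 37.4 and raised 39.1% in EV and lowered 39.3 and raised 40.5% in NRF2 cells. Without replicate 3 of NRF2 with DMSO the NRF2 counts were again 8 and 3. Pprc1, a coactivator of the PGC-1 family, went from 263 ± 7.32 to 94.0 ± 5.15 CPM in EV (-1.48) and from 244 ± 8.40 to 72.0 ± 0.172 CPM in NRF2 cells (-1.76). Nrf1, the gene of nuclear respiratory factor 1, went from 48.8 ± 1.32 to 28.2 ± 0.854 CPM (-0.79) and from 48.4 ± 1.87 to 22.5 ± 1.61 CPM (-1.10). Gabpb2 (-1.43 and -1.74) and Gabpb1 (-0.65 and -1.04), partners of the ETS factor GABPA, fell as well, as did Myc (-0.86 and -0.93). Ppargc1a, the gene of PGC-1alpha, was low and rose, in EV cells from 4.201 ± 0.413 to 9.29 ± 0.635 CPM (1.15, edgeR adjusted p = 1.2e-06), and by 0.65 in NRF2 cells. Of this list 1 gene was higher and 6 lower in the difference between the lines (1 and 7 without that replicate), against 5.53 and 10.2% of all genes, Gabpb1 (-0.39) and Nrf1 (-0.31) among them.

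Of 32 genes for mitochondrial DNA transcription and RNA handling, 4 rose and 18 fell in EV and 4 rose and 19 fell in NRF2 cells, with medians of -0.29 in each against 0.01 over all genes. In NRF2 cells 3 rose and 21 fell without replicate 3 of NRF2 with DMSO. Rexo2, a mitochondrial oligoribonuclease, changed by -0.97 and -1.03, Top1mt, the mitochondrial topoisomerase, by -0.83 and -0.95, Oxa1l, which inserts proteins into the inner membrane, by -0.86 and -0.99, and Tbrg4 by -0.83 and -1.03. Fastkd1 rose, by 0.87 and 1.02. Of 47 assembly factors 19 rose and 14 fell in EV and 20 rose and 17 fell in NRF2 cells (19 and 18 without that replicate), and the share that rose was near the 39.1 and 40.5% of all genes. The complex IV assembly factor Cox19 rose (1.35 and 1.31) and Sco2, a copper chaperone of the same complex, fell (-1.37 and -1.60), while the complex I factors Ndufaf3 (1.19 and 1.43) and Ecsit (0.96 and 1.15) rose and the ATP synthase factor Atpaf1 (-0.99 and -1.003) fell. Of 27 genes for electron carriers, coenzyme Q synthesis and exchange across the inner membrane, 11 rose and 6 fell in EV and 13 rose and 7 fell in NRF2 cells (12 and 9 without that replicate), against 39.1 and 37.4% of all genes in EV and 40.5 and 39.3% in NRF2 cells. The uncoupling protein gene Ucp2 rose (2.07 and 1.91) and was also higher in NRF2 than EV cells with DMSO (1.18, edgeR adjusted p = 2.7e-07), and the adenine nucleotide carrier Slc25a5 changed by -1.08 and -1.23.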

How the data were processed

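Poly-A RNA from 12 libraries was analysed. Extraction used Trizol and library construction TruSeq reagents, per the labels' protocols. The submitters' processing notes name bcl2fastq 2.19, kallisto 0.44.0, DESeq2 and the build GRCm38. The main table holds estimated counts per gene symbol, deposited by the authors as whole numbers, and a second deposited table holds a normalized signal, each count divided by a library factor. Strand use and the splitting of reads between near-identical genes are not given in the sources used here.

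The members, lists and tests were chosen with earlier results of these data known. Genes passing the default filter of edgeR 4.0.16 (13502) were tested in R 4.3.3 with its quasi-likelihood test (robust, TMM factors, two-sided) in 1 fit of 12 libraries with 4 group means and 8 residual degrees of freedom. P-values were adjusted by Benjamini-Hochberg across every tested gene and called under 0.05. Levels are CPM with TMM factors, and SE is that of the log2 fold change. Transcript lengths, positions and near-identical pseudogenes (blastn, at least 95% identity over 200 bases and 50% of the copy) came from GENCODE M21. The alternatives comprised scaling by RLE, upper quartile or library size, TMM without mitochondrial rows, other filters, DESeq2 1.42.0, limma 3.58.1 (voom, and trend on the deposited signal with a pseudocount of 1), the groups compared alone, a replicate block, a threshold of 0.01 and leaving out each library. The text names, per complex and comparison, the 3 called members that changed most at 1 CPM or more, the most abundant member of each complex, isoform sets, all mitochondrial mRNAs, members going against their complex, and up to 4 genes per list; others were chosen after their values were seen. The fits were tested on simulated counts. Protein sequences were not used here. The values of 1 member are not reported here.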

Additional observations from a re-analysis of the deposited data

Results flagged for a closer look

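For 4 members the test of the difference between the lines passed, so that the romidepsin effect in NRF2 cells and in EV cells was not the same size. The difference (log2, NRF2 minus EV) was 0.34 for Ndufa6, with effects of -0.15 in EV and 0.20 in NRF2 cells, 0.31 for Cox7a2l (0.30 and 0.61), 0.27 for Ndufs5 (0.42 and 0.69) and -0.25 for Uqcrb (-0.37 and -0.61). Leaving out replicate 3 of untreated NRF2 cells gave 0.25 for Ndufa6, 0.24 for Cox7a2l and -0.28 for Uqcrb, all called; Ndufs5 lost its call. The calls of Ndufs5 and Uqcrb were also lost on leaving out several other single libraries, among them replicate 1 of EV cells with DMSO and replicate 2 of NRF2 cells with romidepsin.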

How the results depend on the processing

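For 212 named values, 4901 of 5266 recomputed values kept their side of the threshold (95 of these, called in neither fit, changed sign, 19 of them without replicate 3 of NRF2 with DMSO), 230 lost and 126 gained a call, and 9 reversed. With romidepsin in NRF2 cells, Atp5a1 stood at 0.0033 (upper quartile) and 0.034 (library size alone), Ndufs8 at 0.014 (library size alone), mt-Nd4l at 0.091 and mt-Nd5 at 0.17 without that replicate (lowest on leaving out 1 library -0.52 and -0.28), and mt-Co2 at -0.18 pooled with its copies. Pooled mt-Co2 stood at -0.16 for NRF2 against EV with romidepsin, and for NRF2 with DMSO, without that replicate, Cox6b1 stood at 0.14 and mt-Nd6 at -0.32 (other end of the range over single omissions -0.13 and 0.27). Leaving it out also took the nuclear differences between the lines above 0 from 60 to 31 of 80. Counts of called members that moved by more than 1.5 times were these, and the share of all genes called in these fits was not counted. With library size alone, NRF2 against EV with DMSO had 2 nuclear lower and 1 mitochondrial higher, romidepsin had 6 nuclear lower in each line, with 2 mitochondrial higher and 1 lower in NRF2 cells, and the difference between the lines had 5 nuclear higher. With upper-quartile factors romidepsin had 8 (EV) and 7 (NRF2) nuclear lower, with 2 mitochondrial higher and 1 lower in NRF2 cells. Romidepsin in NRF2 cells had 2 mitochondrial lower with RLE factors, no filter, limma-trend, the groups alone and a threshold of 0.01. DESeq2 gave 5 mitochondrial higher for NRF2 with DMSO, 1 lower with romidepsin in EV, and for the difference 5 nuclear higher and 1 mitochondrial lower; limma-trend gave 1 mitochondrial lower in EV and the filter of 1 CPM 1 for the difference. Fitted alone, NRF2 against EV with DMSO had 0 nuclear lower and 1 mitochondrial higher, romidepsin in EV had 7 mitochondrial higher and 1 lower, and NRF2 against EV with romidepsin had 32 nuclear higher, 11 lower, and 2 mitochondrial higher and 3 lower. Under 0.01, NRF2 with DMSO had 0 nuclear lower and 1 mitochondrial higher, NRF2 with romidepsin 11 and 1 nuclear, and the difference 1 and 0. Pooling copies gave 1 mitochondrial lower for NRF2 with romidepsin and 1 for the difference.

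Leaving out single libraries gave 4 to 25 nuclear higher and 0 to 6 lower, and 1 to 6 mitochondrial higher and 0 to 1 lower, for NRF2 with DMSO. For romidepsin in EV the ranges were 32 to 45, 11 to 21, 2 to 5 and 0 to 1, and in NRF2 cells 39 to 45, 10 to 23, 0 to 4 and 2 to 4. For NRF2 with romidepsin they were 13 to 28, 1 to 10, 0 to 1 and 0 to 4, and for the difference 2 to 6, 0 to 2, 0 to 0 and 0 to 4. The widest moves came without replicate 3 of NRF2 with DMSO; for NRF2 with DMSO, leaving out replicate 2 of that group gave 6 nuclear lower and 6 mitochondrial higher, replicate 1 of it 5 mitochondrial higher, and replicate 1 or 2 of EV with DMSO 1. Leaving out replicate 1 or 2 of NRF2 with romidepsin gave 2 mitochondrial lower in NRF2 cells, and leaving out replicate 1, 2 of EV or 2, 3 of NRF2 with romidepsin 1 to 2 nuclear lower between the lines. The causes were not tested. Same-numbered libraries did not deviate together (correlations from -0.123 to 0.0625; 0, 1, 3 and 0 of 6 libraries best with their own number in the 4 comparisons), so no pairing by number was seen. With 3 libraries per group this check cannot show that there was none. With the replicate block the nuclear counts were 34 and 14 for romidepsin in EV and 43 and 13 in NRF2 cells, and every count stayed within 1.5 times. A share of counts without mitochondrial rows that are not mRNAs was not run, since the table's mitochondrial rows are the 13 mRNAs.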
